A study of Mus musculus with 3 samples.

Results

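Natural killer cells were identified among CD45-positive cells of mouse mammary tumours as barcodes chosen by measured transcripts: at least 2 UMIs, in sum, of 4 receptor genes, Ncr1, Klre1, Klrb1c and Klra7. A UMI is a unique molecular identifier and counts 1 captured transcript, and a barcode stands for 1 captured cell. The barcodes also had at least 200 genes, at most 10% mitochondrial UMIs, no UMI of Cd3d, Cd3e or Cd3g (the invariant chains of the T-cell receptor complex), under 0.5% of UMIs from the neutrophil genes S100a8 and S100a9, at most 1 UMI of C1qa, C1qb and C1qc and at most 2 of H2-Ab1. Of 14226 barcodes that passed the gene and mitochondrial limits, out of 14336 deposited, 211 met this rule: 47 in replicate 1, 128 in replicate 2 and 36 in replicate 3. They were compared with 1090 CD8 T cells (at least 2 Cd3 UMIs, at least 1 of Cd8a or Cd8b1 and none of Cd4) and 1836 other lymphocytes, which were the remaining Cd3-positive barcodes and 28 B cells with at least 2 UMIs of Cd79a and Cd79b.

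Natural killer cells are innate lymphocytes that kill target cells without a rearranged antigen receptor. They read a balance of inhibitory and activating receptors, many of them encoded together in the natural killer gene complex, and the activating ones signal through small adaptor chains such as DAP12, DAP10 and the Fc receptor gamma chain. In tumours they are known for releasing granzymes and perforin at target cells, and for secreting chemokines such as XCL1 and CCL5 that attract dendritic cells.

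The tumours had been grown for 4 weeks from 2208L cells, a mouse mammary tumour line, injected into the mammary gland. They were taken at a diameter of 0.7 to 1 cm, and viable cells were sorted as CD45-positive and DAPI-negative. All 3 libraries carry the same labels, so there is 1 group and no control group, and each comparison was made between cell classes within the libraries. The labels give no strain, genotype or age and call the cell type tumor. They leave unsaid whether the libraries come from separate animals, so p-values measure only the spread between these libraries. Library totals were 9846404, 15259236 and 9445914 UMIs. Between 25 and 37 barcode sequences were shared by each pair of libraries, and 0 of them belonged to natural killer cells.

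The 4 gate genes chose the cells and are given here as a description only. Ncr1, which encodes the activating receptor NKp46, had a UMI in 181 of the 211 barcodes (85.8%), Klre1 in 99 (46.9%), Klrb1c, the gene of NK1.1, in 67 (31.8%) and Klra7, a Ly49 receptor gene, in 57 (27.0%). At least 2 of the 4 genes were present together in 149 barcodes (70.6%). The gate sum was exactly 2 UMIs in 79 barcodes, 3 in 40, 4 in 35 and 5 or more in 57, with a maximum of 19. Of 346 barcodes with 2 or more gate UMIs, 239 had no Cd3 UMI, 225 of these were under the S100a8 and S100a9 limit, 218 also under the C1q limit and 211 under all limits. The label therefore rests on few molecules per cell, and Klra7 belongs to a family of near-identical genes between which reads can be split.

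The 98 barcodes just outside the limit, with 1 gate UMI, and the 79 just inside, with 2, are described by genes that the rule did not use. Levels are given in CPM, the UMIs of a gene scaled to a common total of UMIs (counts per mega-UMI) for a class in a library or, here, for the pooled barcodes. Gzma stood at 2313 CPM outside and 2282 inside, Tyrobp at 2250 and 2481, Xcl1 at 2130 and 2390, the T-cell receptor alpha constant gene Trac at 77.3 and 33.2, the beta constant gene Trbc2 at 281 and 481 and the myeloid gene Lyz2 at 21.1 and 41.5. The T-cell receptor genes and Lyz2 thus differed more across the limit than the other genes. The 2118 barcodes with 0 gate UMIs that met the other limits had 18.2 CPM of Gzma, 58.1 of Xcl1 and 2800 of Lyz2. Their Tyrobp level was 2429 CPM, so Tyrobp did not set the barcodes at the limit apart from them. The counts of natural killer cells given here are counts of barcodes with enough gate UMIs.

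The share of natural killer cells among barcodes was 1.07% (0.789 to 1.42), 2.13% (1.78 to 2.53) and 0.938% (0.658 to 1.30) in the 3 libraries in order, with 95% exact binomial intervals by Clopper and Pearson, a mean of 1.38% ± 0.653 (SD, n = 3). As a share of the gated lymphocytes (natural killer, CD8 T and other) they reached 4.46% (3.29 to 5.89), 9.28% (7.80 to 10.9) and 5.11% (3.61 to 7.01), a mean of 6.28% ± 2.62. Replicate 2 was the highest by both denominators and its intervals did not overlap those of the other libraries, whereas replicates 1 and 3 overlapped. There were 6.94, 4.21 and 6.25 CD8 T cells for each natural killer cell in replicates 1, 2 and 3. These intervals cover counting error only, and whether more natural killer cells or more molecules per cell put barcodes over the limit cannot be told apart from such counts.

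**Figure D1:**
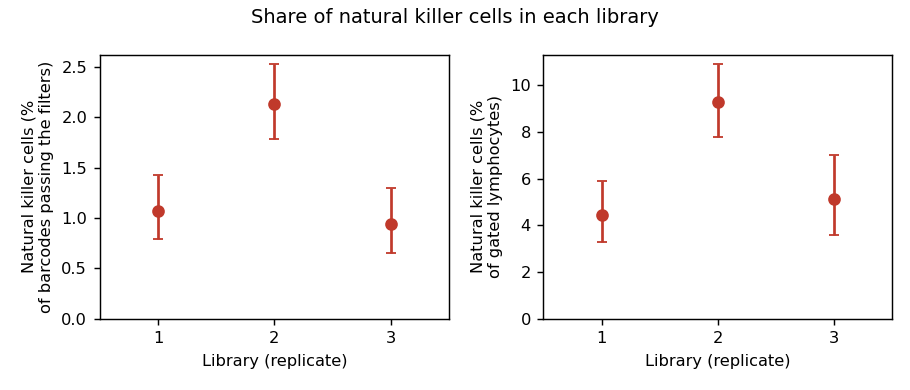
Share of natural killer cells (vertical axes, %) in replicates 1 to 3, of all barcodes passing the filters (left) and of gated lymphocytes (right). Points are shares and bars 95% Clopper-Pearson intervals; replicate 2, at 2.13% and 9.28%, lies above the intervals of the other libraries.

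Depth differed little between the lymphocyte classes within a library. Median totals were 1239, 1588.5 and 1936.5 UMIs per natural killer cell in replicates 1, 2 and 3, and 1184, 1543 and 1676 per CD8 T cell. UMIs were summed per library and class, and the 9 sums were compared in 1 fit with edgeR's quasi-likelihood test, library as a block and Benjamini-Hochberg adjustment over all genes tested. The 18 genes used to gate or filter any class were left out of the tests. The filter on low counts needed enough UMIs in only as many sums as 1 class has. A gene could thus be tested through the class where it is high, and counts of rises and falls and list medians carry this selection. Against CD8 T cells 451 of 4934 tested genes passed an adjusted p of 0.05 (9.14%), 198 higher (4.01%) and 253 lower (5.13%) in natural killer cells. Against other lymphocytes 525 passed (10.6%), 228 higher (4.62%) and 297 lower (6.02%). The 3 libraries' CPM ranges did not overlap between classes for 26.9% of tested genes against CD8 T cells and 28.7% against other lymphocytes. Both comparisons use the same natural killer sums, so they are not independent of each other. The shares called over all tested genes are the background for the list counts below. A log2 difference below is natural killer minus the other class, ± its standard error from the fit.

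**Figure D2:**
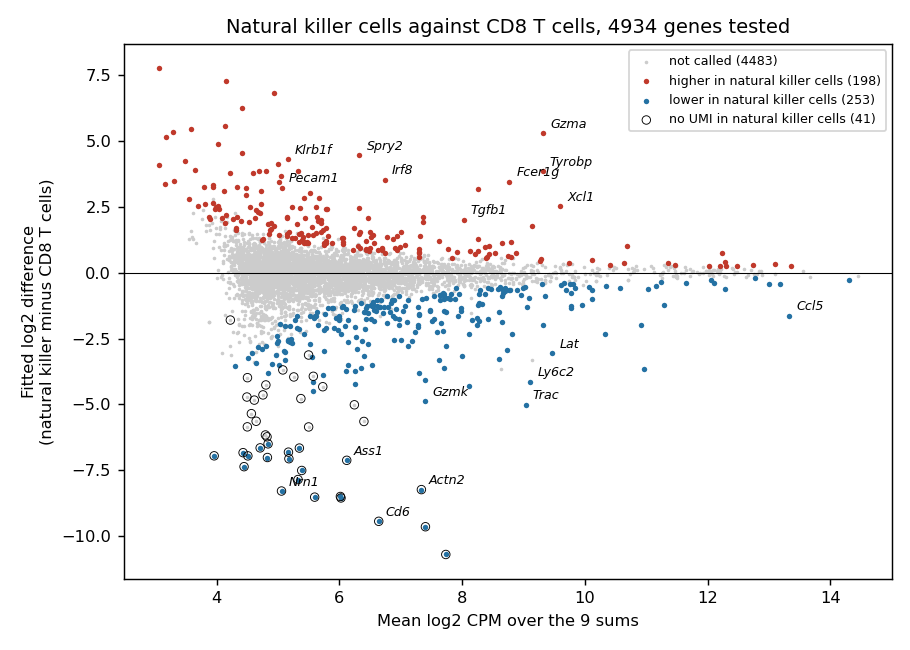
Fitted log2 difference between natural killer and CD8 T cells (vertical axis) against mean log2 CPM over the 9 sums (horizontal axis), 1 point per tested gene. Coloured points are the 198 higher and 253 lower genes, and open circles mark 41 genes with no UMI in natural killer cells, whose fitted values depend on the prior count and are no measure of size.

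Gzma, the granzyme A gene, was the gene with the largest rise among those the naming rule admits. Its level was 2228, 2894 and 4008 CPM in the natural killer cells of replicates 1, 2 and 3, 90.3, 100 and 39.8 CPM in CD8 T cells and 28.5, 96.8 and 1.08 CPM in other lymphocytes. All natural killer libraries were above all others, and the log2 difference was 5.30 ± 0.42 against CD8 T cells (adjusted p = 3.61e-08) and 6.19 ± 0.43 against other lymphocytes (adjusted p = 2.75e-09). The related granzyme gene Gzmk went the other way. It had 4 UMIs in all natural killer cells, at 28.6, 9.26 and 0 CPM, against 411, 246 and 363 CPM in CD8 T cells (log2 difference -4.88 ± 0.52, adjusted p = 1.45e-06).

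Gzma and Gzmk are neighbours on chromosome 13 and both are read from the minus strand. Gzma spans 113093825 to 113100981 and Gzmk 113171608 to 113225908 (GRCm38, GENCODE M21), with 70626 bases between them. RefSeq starts Gzmk inside the GENCODE span, so the annotations differ in its start and the window shown lies within that span. The 250 bases before the RefSeq start of each gene, from the GRCm38.p6 annotation, are shown because these neighbours moved in opposite directions, together with those of Xcl1, a chemokine gene that rose against both classes. Capitals mark matches to the half-site of T-box factors such as EOMES and T-bet (GGTGTGA, or TCACACC on the other strand) and to a Runx site (ACCACA, or TGTGGT).
Gzma, chr13:113100982-113101231, minus strand: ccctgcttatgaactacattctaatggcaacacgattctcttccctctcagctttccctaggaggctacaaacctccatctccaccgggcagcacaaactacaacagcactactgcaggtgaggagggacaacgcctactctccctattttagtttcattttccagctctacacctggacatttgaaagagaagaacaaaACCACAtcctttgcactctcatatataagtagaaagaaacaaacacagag
Gzmk, chr13:113180966-113181215, minus strand: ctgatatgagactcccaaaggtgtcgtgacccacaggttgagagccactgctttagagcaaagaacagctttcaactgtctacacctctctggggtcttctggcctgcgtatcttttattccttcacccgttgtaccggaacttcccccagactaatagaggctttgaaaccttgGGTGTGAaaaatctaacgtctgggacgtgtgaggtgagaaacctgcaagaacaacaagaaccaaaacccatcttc
Xcl1, chr1:164935523-164935772, minus strand: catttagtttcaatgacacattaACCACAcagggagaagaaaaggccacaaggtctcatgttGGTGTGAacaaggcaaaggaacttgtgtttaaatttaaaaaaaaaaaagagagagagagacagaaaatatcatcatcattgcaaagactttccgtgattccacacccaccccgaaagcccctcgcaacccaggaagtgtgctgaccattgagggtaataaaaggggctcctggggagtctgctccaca
The Gzma window holds 1 Runx match, the Gzmk window 1 T-box match and the Xcl1 window 1 of each. Such matches are common: the T-box letters are in 3.33% and the Runx letters in 14.0% of 32851 promoter windows of this length. Among genes higher in natural killer than in CD8 T cells, 6 of 146 with a window hold the T-box letters (4.11%) and 21 the Runx letters (14.4%), beside 3.13% and 13.5% of the 3830 tested genes with a window. Among genes higher than in other lymphocytes, 11 of 170 hold the T-box letters (6.47%) and 36 the Runx letters (21.2%). Among genes lower than in CD8 T cells these were 9 and 29 of 189 (4.76% and 15.3%), and among genes lower than in other lymphocytes 11 and 35 of 224 (4.91% and 15.6%). These shares were not tested. A match describes letters and does not show binding.

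The list of cytotoxic granule and death ligand genes had 16 of 21 members tested. Against CD8 T cells 5 rose (Gzma, Gzmc, Serpinb9, Serpinb6b and Ctsw) and 2 fell (Gzmk and Nkg7), with a median log2 difference of 0.17 beside -0.03 over all genes. The shares over all tested genes were 4.01% higher and 5.13% lower. Gzmc, another granzyme gene, reached 243, 69.5 and 80.7 CPM in natural killer cells, whereas CD8 T cells held 1 UMI of it, a ratio of 211 with a 95% counting interval from 35.7 to 8555. Serpinb9, an inhibitor that shields killer cells from their own granzyme B, stood at 257, 157 and 282 CPM against 38.7, 28.3 and 16.8 CPM (log2 difference 2.85 ± 0.32, adjusted p = 2.66e-06). Ctsw, a protease of cytotoxic lymphocytes, was moderately higher (0.66 ± 0.14, adjusted p = 0.00473) and Nkg7, a granule membrane gene, slightly lower (-0.49 ± 0.13, adjusted p = 0.0216). The Ctsw call was lost without replicate 1 and without replicate 3, and the Nkg7 call without replicate 1 and with DESeq2.

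Gzmb, the granzyme B gene, did not separate the killer classes: natural killer cells had 400, 440 and 915 CPM and CD8 T cells 649, 361 and 549 CPM. The ranges overlapped, and the log2 difference was 0.12 ± 0.24 (adjusted p = 0.847). Prf1, the perforin gene, had only 6 UMIs in all natural killer cells and 9 in CD8 T cells and was too low to be tested. Against other lymphocytes 9 of the 16 rose, Gzmb (1.89 ± 0.25, adjusted p = 2.12e-05), Nkg7 (1.47 ± 0.14, adjusted p = 1.41e-07) and the death ligand genes Fasl and Tnfsf10 among them, and Gzmk fell, a call that was lost without replicate 2. The median of the list was 1.52 there, beside -0.04 over all genes. In that comparison 4.62% of all tested genes were higher and 6.02% lower, so the fall of Gzmk alone is near the latter share.

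**Figure D3:**
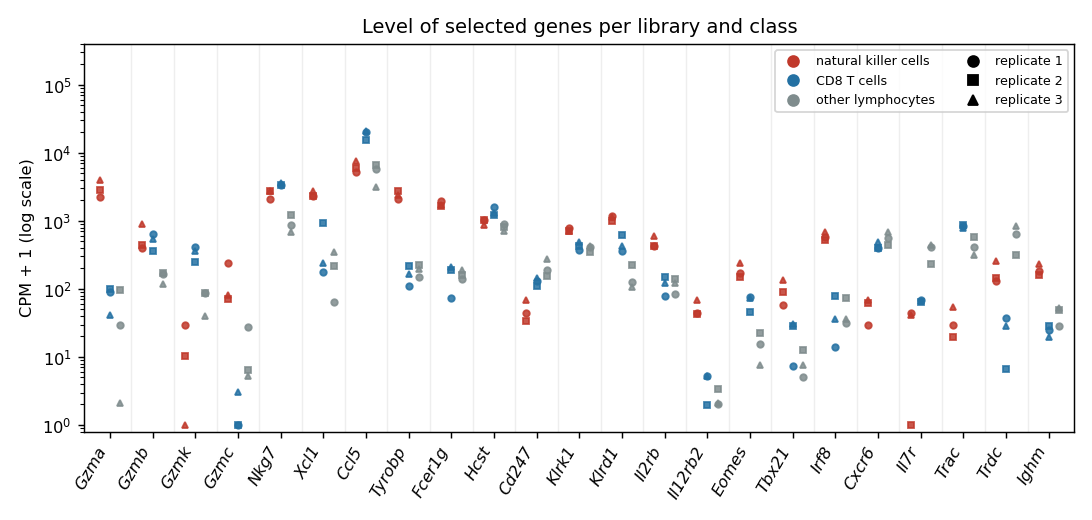
Level of selected genes in CPM + 1 (logarithmic vertical axis) per library, for natural killer cells, CD8 T cells and other lymphocytes; circles, squares and triangles are replicates 1, 2 and 3. Gzma, Tyrobp, Fcer1g, Xcl1 and Irf8 lie above both other classes in every library, and Gzmk, Cd247, Cxcr6 and Trac lie below.

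Receptor genes outside the gate were mostly higher; they belong to the same families as the gate genes, so they are not independent of the rule's choice of cells. Of 24 listed, 16 were tested, and 9 rose against CD8 T cells (median 0.94) and 13 against other lymphocytes (median 2.30), while the others did not pass the test in either direction. The filter on low counts could admit such a gene through the natural killer sums alone, which tilts these counts and medians upward. Klrb1f, a lectin-like receptor gene, had 243, 199 and 242 CPM in natural killer cells and 21.5, 4.72 and 12.6 CPM in CD8 T cells (4.31 ± 0.36, adjusted p = 5.45e-08). Klri2, whose product pairs with that of Klre1, had 343, 306 and 188 CPM against 4.30, 28.3 and 14.7 CPM (3.87 ± 0.38, adjusted p = 5.02e-07). Cd244, a receptor of the SLAM family also called 2B4, had 157, 148 and 134 CPM against 12.9, 18.9 and 14.7 CPM (3.09 ± 0.32, adjusted p = 1.24e-06). In each of these genes the natural killer libraries stood far above the CD8 T libraries without overlap.

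Receptors that CD8 T cells share with natural killer cells differed less. Klrd1, the CD94 chain of the NKG2 receptors, had 1171, 986 and 1143 CPM in natural killer cells and 361, 614 and 428 CPM in CD8 T cells (1.16 ± 0.18, adjusted p = 0.000218). Klrk1, the gene of the activating receptor NKG2D, had 800, 704 and 713 CPM against 378, 425 and 484 CPM (0.73 ± 0.14, adjusted p = 0.00133). Klrc1, which encodes the inhibitory receptor NKG2A, was within the spread of CD8 T cells (0.19 ± 0.20, adjusted p = 0.68) and above other lymphocytes (2.33 ± 0.22, adjusted p = 2.02e-07), and Klrc2 showed the same split (-0.11 ± 0.25 and 1.76 ± 0.29, adjusted p = 0.872 and 0.000213). The Fc receptor gene Fcgr3, whose product CD16 binds antibody on target cells, rose to 57.1, 69.5 and 94.1 CPM from 10.8, 14.2 and 18.9 CPM (2.28 ± 0.40, adjusted p = 0.000625). Klrg1, a receptor of mature killer cells, had 0, 27.8 and 67.2 CPM and did not pass (0.37 ± 0.58, adjusted p = 0.793).

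The Ly49 genes Klra3 and Klra5 were also called higher than in both classes, Klra3 at 186, 273 and 282 CPM and Klra5 at 243, 157 and 40.3 CPM in natural killer cells. Klra1, Klra4, Klra8 and Klra9 had 16, 5, 1 and 9 UMIs in natural killer cells and were not tested. The Ly49 genes resemble one another closely, as do Klrc1 and Klrc2, so which member a read was assigned to is uncertain.

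Most of these receptor genes lie in the natural killer gene complex of chromosome 6, taken here from the first to the last Klr gene (chr6:128609227-131247362, GRCm38). Of 15 tested genes in this interval 7 were higher than in CD8 T cells and 10 higher than in other lymphocytes. On the rest of the chromosome 9 of 254 and 13 of 254 tested genes were higher. The gate genes Klre1, Klrb1c and Klra7 lie inside the interval, which was itself drawn by its Klr genes. Its counts are therefore not independent of the rule's choice of cells, and the contrast with the rest of the chromosome is a description only. Cd69, an early activation gene inside the same interval, was lower, at 129, 111 and 53.8 CPM against 256, 216 and 212 CPM in CD8 T cells (-1.16 ± 0.23, adjusted p = 0.00204) and 508, 366 and 446 CPM in other lymphocytes (-2.06 ± 0.22, adjusted p = 8.20e-07).

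Adaptor genes moved in both directions. Tyrobp, which encodes DAP12, had 2085, 2797 and 2434 CPM in natural killer cells, 110, 213 and 163 CPM in CD8 T cells and 148, 220 and 197 CPM in other lymphocytes. Fcer1g, the Fc receptor gamma chain gene, had 1985, 1658 and 1708 CPM, against 73.1, 186 and 210 CPM in CD8 T cells and 139, 159 and 189 CPM in other lymphocytes. No libraries overlapped, and the log2 differences from CD8 T cells were 3.85 ± 0.13 for Tyrobp (adjusted p = 3.75e-14) and 3.45 ± 0.21 for Fcer1g (adjusted p = 2.89e-10).

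Both genes are also abundant in neutrophils, at 4658 to 5483 CPM for Tyrobp and 4595 to 5603 CPM for Fcer1g. The sum of 10 neutrophil markers was 186, 403 and 202 CPM in natural killer cells and 277, 441 and 589 CPM in CD8 T cells. It was 24815 CPM on average in the neutrophil class, and Csf3r and Retnlg had 0 UMIs in natural killer cells. The S100a8 and S100a9 limit applied to every lymphocyte class, so low sums there follow in part from the rule. The source of the Tyrobp and Fcer1g transcripts was not tested.

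Hcst, the gene of the NKG2D adaptor DAP10, was slightly lower than in CD8 T cells, at 1042, 1019 and 874 CPM against 1619, 1240 and 1310 CPM (-0.53 ± 0.11, adjusted p = 0.00291), a call that was lost without replicate 1. Tyrobp and Hcst are adjacent on chromosome 7 (30413760 to 30417585 on the plus strand and 30417712 to 30419854 on the minus strand, 126 bases apart), so these adjacent genes differed in opposite directions. Cd247, the zeta chain of the T-cell receptor complex, was also lower, at 42.8, 32.4 and 67.2 CPM against 129, 109 and 143 CPM (-1.55 ± 0.31, adjusted p = 0.00191), and this call was lost without replicate 2. Lat, a scaffold of T-cell receptor signalling and a T-lineage gene tied to the Cd3 rule, had 129, 102 and 67.2 CPM against 955, 774 and 748 CPM. Lat2, its relative in other leukocytes, rose (3.04 ± 0.27, adjusted p = 1.34e-07). Of 16 tested adaptor and signalling genes, 5 rose (Tyrobp, Fcer1g, Lat2, Txk and Ptpn6) and 5 fell, Lat, Cd247, Hcst and Lck among them, against CD8 T cells, with a median of -0.50. The number that fell was 2 without replicate 1 and 3 without replicate 3, and against other lymphocytes 6 rose and 3 fell.

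Among cytokine receptor genes and their regulators, 21 of 27 were tested, 6 rose against CD8 T cells and 1 fell. Over all tested genes 4.01% rose and 5.13% fell, so the 1 fall is near that share. Il2rb, the beta chain shared by the interleukin-2 and interleukin-15 receptors, had 428, 431 and 605 CPM in natural killer cells, 77.4, 149 and 122 CPM in CD8 T cells and 82.5, 138 and 121 CPM in other lymphocytes. It was higher in every library (1.92 ± 0.19, adjusted p = 5.44e-07 and 2.0 ± 0.19, adjusted p = 1.49e-07). Il12rb2, a chain of the interleukin-12 receptor, had 42.8, 41.7 and 67.2 CPM against 4.30, 0.944 and 4.19 CPM in CD8 T cells (4.11 ± 0.73, adjusted p = 0.000635). Its signal transducer gene Stat4 rose too (1.52 ± 0.37, adjusted p = 0.0102), but its partner chain gene Il12rb1 had 0 UMIs in natural killer cells, 22 in CD8 T cells and 82 in other lymphocytes.

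The interleukin-18 receptor genes Il18r1 (1.05 ± 0.27, adjusted p = 0.0167) and Il18rap (1.69 ± 0.51, adjusted p = 0.0444) and the interferon gamma receptor gene Ifngr1 (0.84 ± 0.16, adjusted p = 0.00116) completed the 6. Without replicate 2, the library with most natural killer cells, 2 genes of the list were called higher. Il7r, the interleukin-7 receptor gene, had 42.8, 0 and 40.3 CPM against 68.8, 62.3 and 65.0 CPM in CD8 T cells (-1.91 ± 0.57, adjusted p = 0.0373), a call that was lost without replicate 2, and 409, 235 and 436 CPM in other lymphocytes (-4.23 ± 0.42, adjusted p = 4.32e-07). Against other lymphocytes 5 genes rose and 5 fell, Cish, Socs1 and Socs2, inhibitors of cytokine signalling, among the latter, and without replicate 2 the list had 1 rise.

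Transcription factor genes gave 4 higher and 2 lower of 17 tested against CD8 T cells, beside 4.01% and 5.13% over all tested genes. Eomes and Tbx21, the T-box factors of killer lymphocytes, were both higher: Eomes had 171, 148 and 242 CPM against 75.3, 45.3 and 73.4 CPM (1.5 ± 0.32, adjusted p = 0.00398) and Tbx21 57.1, 88.0 and 134 CPM against 6.45, 27.4 and 29.3 CPM (1.94 ± 0.38, adjusted p = 0.00192). Against CD8 T cells limited to those with a Gzmb and no Gzmk UMI, Eomes missed the threshold (1.13, adjusted p = 0.109). Irf8, a factor best known from myeloid cells and also needed by natural killer cells, had 571, 528 and 686 CPM against 12.9, 78.3 and 35.6 CPM (3.53 ± 0.29, adjusted p = 5.45e-08). Gata3 was higher as well (1.16 ± 0.32, adjusted p = 0.0259), a call that was lost without replicate 1 and without replicate 2.

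Bcl11b, a factor that fixes the T-cell fate, had 14.3, 0 and 40.3 CPM in natural killer cells against 209, 183 and 187 CPM in CD8 T cells, a value that follows from the rule's exclusion of Cd3 transcripts. Tox, which is known from exhausted T cells and from natural killer cell development, was lower (-1.85 ± 0.33, adjusted p = 0.000595). Tcf7, the gene of the stem-like T-cell factor TCF1, did not pass against either class (0.28 ± 0.32 and -0.32 ± 0.29). Zfp683, which encodes the tissue-residency factor Hobit, had 0 UMIs in natural killer cells and 1 in CD8 T cells. Id2, an inhibitor that innate lymphocytes require, was at 1185, 1158 and 1143 CPM in natural killer cells and higher than in other lymphocytes (0.70 ± 0.12, adjusted p = 0.000353).

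Genes of migration and adhesion moved in both directions, with 4 higher and 5 lower of 21 tested against CD8 T cells. Over all tested genes these shares were 4.01% and 5.13%. Cxcr6, a receptor of tissue-resident lymphocytes, was lower, at 28.6, 60.2 and 67.2 CPM against 393, 395 and 488 CPM in CD8 T cells (-2.93 ± 0.24, adjusted p = 5.45e-08) and 555, 442 and 681 CPM in other lymphocytes (-3.26 ± 0.24, adjusted p = 5.26e-09). S1pr1, the receptor for leaving tissues, had 1 UMI in natural killer cells (14.3, 0 and 0 CPM), which was 0.0842 of the level in CD8 T cells with a counting interval from 0.0021 to 0.486, whereas its relative S1pr5 had 5 UMIs in natural killer cells and 1 in CD8 T cells.

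Ly6c2, a memory marker of CD8 T cells, was also lower (-4.14 ± 0.35, adjusted p = 5.45e-08), as was Cxcr3 (-1.78 ± 0.53, adjusted p = 0.0408), whose call was lost without replicate 1 and without replicate 2. Among the rises were Cxcr4, Rgs2 and Ccr2, between 0.84 and 0.99. The list's number of rises was 2 without replicate 1 and 1 without replicate 2.

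The markers that divide natural killer cells by maturity or residency were barely detected. Itgam, the gene of CD11b, had 6 UMIs in all 211 cells, Itga2, which encodes the CD49b chain, 6, Itga1, which encodes the CD49a chain of tissue-resident and type 1 innate lymphoid cells, 8, and Cx3cr1 1 UMI. Cd27, a marker of less mature cells, was present at 85.7, 111 and 161 CPM, below CD8 T cells without passing the test (-0.90 ± 0.32, adjusted p = 0.0839). Of 14 tested tissue-resident and type 1 innate lymphoid genes 1 rose (Gzmc) and 2 fell (Cxcr6 and Il7r) against CD8 T cells, and 2 rose and 5 fell against other lymphocytes. Over all tested genes 4.01% were higher and 5.13% lower than in CD8 T cells, and 4.62% and 6.02% than in other lymphocytes. The 1 rise is no result about the list. The 2 rises against other lymphocytes were 1 without replicate 2 and with at least 3 gate UMIs, and the 2 falls against CD8 T cells were 1 with DESeq2. A planned comparison of natural killer cells with and without an Itga1 UMI could not be fitted, because replicate 1 had 0 of 47 such cells, replicate 2 had 4 of 128 and replicate 3 had 3 of 36.

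Of the chemokine genes, Xcl1 was higher and Ccl5 lower than in CD8 T cells, and both classes expressed both. Xcl1, the chemokine gene whose product attracts Xcr1-positive dendritic cells, had 2313, 2343 and 2730 CPM in natural killer cells, 176, 944 and 243 CPM in CD8 T cells and 63.1, 218 and 346 CPM in other lymphocytes. The natural killer libraries were close together and above all others, with a log2 difference of 2.52 ± 0.36 from CD8 T cells (adjusted p = 6.92e-05) and 3.69 ± 0.38 from other lymphocytes (adjusted p = 5.48e-07).

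Ccl5, which attracts T cells and monocytes, was lower than in CD8 T cells, at 5326, 5969 and 7693 CPM against 20331, 15595 and 20936 CPM (-1.63 ± 0.19, adjusted p = 4.96e-06), and not separated from other lymphocytes (0.29 ± 0.19, adjusted p = 0.45). Tgfb1, a regulatory cytokine gene, had 528, 718 and 780 CPM against 174, 171 and 140 CPM in CD8 T cells (2.02 ± 0.17, adjusted p = 5.45e-08), and Osm rose from a low level (1.95 ± 0.54, adjusted p = 0.0247), a call lost without any 1 of the 3 libraries. Ccl4, another chemokine gene, overlapped, at 985, 1181 and 982 CPM against 1211, 1068 and 1465 CPM (-0.31 ± 0.21, adjusted p = 0.459). Ifng, the interferon gamma gene, had 85.7, 46.3 and 40.3 CPM against 86.0, 94.4 and 157 CPM, which did not pass (-1.10 ± 0.46, adjusted p = 0.164). Of 14 tested secreted factors 3 rose and 1 fell against CD8 T cells, and 3 rose and 4 fell against other lymphocytes. Over all tested genes 4.01% were higher and 5.13% lower than in CD8 T cells, and 4.62% and 6.02% than in other lymphocytes. The 4 falls were 2 without replicate 2 and 1 with DESeq2.

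Checkpoint and costimulatory receptor genes were lower or did not pass. Of 12 tested, 6 fell against CD8 T cells (Pdcd1, Ctla4, Lag3, Icos, Cd28 and Vsir), with a median of -1.69, and 5 fell against other lymphocytes. Cd28 is also a T-lineage gene tied to the Cd3 rule, so its fall follows in part from the choice of cells. With edgeR 0 of the 12 rose in either comparison, as with DESeq2, and at an unadjusted p under 0.05 2 rose against CD8 T cells and 0 against other lymphocytes. Not every level was lower: Tnfrsf9, a costimulatory gene, had 28.6, 97.3 and 282 CPM against 4.30, 83.1 and 52.4 CPM in CD8 T cells. Tnfrsf18 had 214, 97.3 and 269 CPM against 66.7, 112 and 103 CPM, and neither gene was called. Pdcd1, which encodes PD-1, had 3 UMIs in all natural killer cells and 79.6, 109 and 94.3 CPM in CD8 T cells, a ratio of 0.0846 with a counting interval from 0.0173 to 0.251. Ctla4 had 2 UMIs (ratio 0.0777, 0.00932 to 0.286). Tigit, a checkpoint receptor of natural killer and T cells, had 4 UMIs and was not tested, and the related gene Cd96 did not pass (-0.56 ± 0.51, adjusted p = 0.603). Lag3 and Vsir missed the threshold without replicate 2, where 4 genes were called lower.

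The T-lineage genes follow from the rule, which required Cd3 transcripts in one class and excluded them in the other, and are given as values. Trac had 28.6, 18.5 and 53.8 CPM in natural killer cells and 854, 866 and 773 CPM in CD8 T cells. Cd6, Cd5 and Themis had 0 UMIs in natural killer cells, so that, counting 3 UMIs over the class as the floor, they were at least 15.8-fold, 8.04-fold and 8.70-fold lower than in CD8 T cells. Trbc1, a T-cell receptor beta constant gene, had 628, 667 and 659 CPM against 759, 681 and 964 CPM in CD8 T cells and 582, 570 and 656 CPM in other lymphocytes. Trbc2 was lower, at 386, 375 and 323 CPM against 1611, 1747 and 2002 CPM in CD8 T cells. The Trbc genes are near-identical, so their split between each other is uncertain.

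Trdc, the delta constant gene, lay above CD8 T cells, with 129, 144 and 256 CPM against 36.6, 5.66 and 27.2 CPM, and below other lymphocytes, which include gamma-delta T cells, with 637, 316 and 836 CPM. Tcrg-C1 had 6 UMIs and Tcrg-C2 0 in natural killer cells, beside 1713 and 653 in other lymphocytes. Tcrg-C4 had 24 UMIs in natural killer cells, at 85.7, 60.2 and 67.2 CPM, against 53.8, 28.3 and 52.4 CPM in CD8 T cells and 230, 121 and 288 CPM in other lymphocytes. Leaving out the natural killer barcodes with a UMI of Trac, Trdc or a Tcrg constant gene kept 33 of 47, 86 of 128 and 18 of 36 in replicates 1, 2 and 3. The label thus covers many barcodes with such transcripts. Natural killer cells were then at 0.885% of barcodes on average, and Gzma differed from CD8 T cells by 5.14. Against CD8 T cells 420 genes were called in that run, of which 335 were among the 451 of the main run. That alternative was added after the data were seen.

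Ighm, the immunoglobulin heavy chain gene of B cells, was higher in natural killer cells, at 186, 157 and 229 CPM against 23.7, 27.4 and 18.9 CPM in CD8 T cells (2.82 ± 0.30, adjusted p = 1.60e-06) and 27.5, 47.2 and 52.0 CPM in other lymphocytes (2.06 ± 0.27, adjusted p = 1.45e-05). The B and plasma cell markers Ms4a1, Jchain, Pax5 and Ebf1 all had 0 UMIs in natural killer cells.

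Markers of other cell types were compared as summed levels. The C1q and H2-Ab1 limits applied to every lymphocyte class, so low macrophage and dendritic cell sums follow in part from the rule. The sum of 9 macrophage and monocyte markers was 186, 287 and 161 CPM, against 252, 324 and 354 CPM in CD8 T cells. Its mean was 4290 CPM in the neutrophil class, which had no C1q limit. Adgre1 and Mrc1 were at 0 in natural killer cells. The sum of 9 dendritic cell markers was 128, 329 and 188 CPM, against 176, 300.1 and 140 CPM in CD8 T cells, with Flt3, Xcr1, Clec9a, Cd209a, Siglech and Ccr9 at 0. The sum of 7 epithelial markers was 42.8, 4.63 and 40.3 CPM, against 6.45, 44.4 and 6.29 CPM in CD8 T cells. Of the 8 markers of mast cells, basophils and type 2 innate lymphoid cells all but 2 were at 0, with Gata3 giving 111 of the 116 CPM on average, beside 47.5 CPM for the 8 in CD8 T cells.

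Interferon-stimulated genes were lower than in CD8 T cells: 10 of 17 tested fell, with a median of -1.77. With edgeR 0 rose, as at an unadjusted p under 0.05 and with DESeq2. Isg15, a ubiquitin-like protein gene, had 114, 60.2 and 121 CPM against 426, 337 and 520 CPM (-2.32 ± 0.27, adjusted p = 4.88e-06), and Bst2, an antiviral tether, 129, 130 and 108 CPM against 452, 362 and 438 CPM (-1.82 ± 0.25, adjusted p = 4.39e-05). Against other lymphocytes 3 fell (Isg15, Bst2 and Igtp) and none of these calls remained without replicate 2.

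Cell-cycle genes were also lower than in CD8 T cells, 9 of 16 tested, with a median of -2.02. The number was 7 without replicate 2, 12 without replicate 1, and 14 with no filter on low counts or without the barcodes holding T-cell receptor UMIs. Against CD8 T cells limited to those with a Gzmb and no Gzmk UMI, a limit added after the data were seen, edgeR's number of lower genes went from 9 to 0; the counts at an unadjusted p and with DESeq2 were not computed under that limit. Mki67, the proliferation marker, had 2 UMIs in natural killer cells and 40.9, 34.9 and 41.9 CPM in CD8 T cells, and Top2a, a topoisomerase of dividing cells, had 71.4, 9.26 and 13.4 CPM against 125, 111 and 88.0 CPM (-2.31 ± 0.43, adjusted p = 0.000995). Replicate 1 stood above the other natural killer libraries in several of these genes: Birc5 had 143 CPM there and 4.63 and 0 CPM in replicates 2 and 3, and Stmn1 200, 46.3 and 13.4 CPM. Both were below the CD8 T cells of replicate 1, at 155 and 307 CPM. Ube2c and Cdk1 were above them in that library, at 186 and 85.7 CPM against 133 and 45.2 CPM, as were Ccna2, Ccnb1 and Ccnb2. The lower level was thus not seen in every library for each gene of the list. Against other lymphocytes edgeR called 0 of 16, as did DESeq2, and 3 were lower at an unadjusted p under 0.05.

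Of 14 tested hypoxia and glycolysis genes, Gapdh and Aldoa were lower than in CD8 T cells and 7 were lower than in other lymphocytes. The Aldoa call was lost without replicate 1, without replicate 2 and with at least 3 gate UMIs, and the 7 became 4 with at least 3 gate UMIs. Gapdh, a glycolytic enzyme gene, had 800, 741 and 511 CPM against 1290, 1221 and 1448 CPM in CD8 T cells (-0.99 ± 0.14, adjusted p = 4.42e-05). Hif1a, the oxygen-regulated factor, had 57.1, 50.9 and 53.8 CPM against 165, 155 and 123 CPM in other lymphocytes (-1.49 ± 0.28, adjusted p = 0.000877). Among immediate-early and heat-shock genes, which cell dissociation can induce, 3 rose and 1 fell of 17 tested against CD8 T cells, and 2 rose and 6 fell against other lymphocytes. Over all tested genes 4.01% were higher and 5.13% lower than in CD8 T cells, and 4.62% and 6.02% than in other lymphocytes. The 1 fall of 17 is near that share and is no result about the list. The fall against CD8 T cells, of the chaperone gene Hsp90aa1, was lost without any 1 of the 3 libraries and with DESeq2, the rises against CD8 T cells numbered 1 with at least 3 gate UMIs, and the 2 rises against other lymphocytes became 1 without replicate 2. Fos had 214, 292 and 282 CPM in natural killer cells, 316, 328 and 377 CPM in CD8 T cells and 925, 956 and 1444 CPM in other lymphocytes, and only the last difference passed (-2.0 ± 0.16, adjusted p = 1.57e-08).

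**Figure D4:**
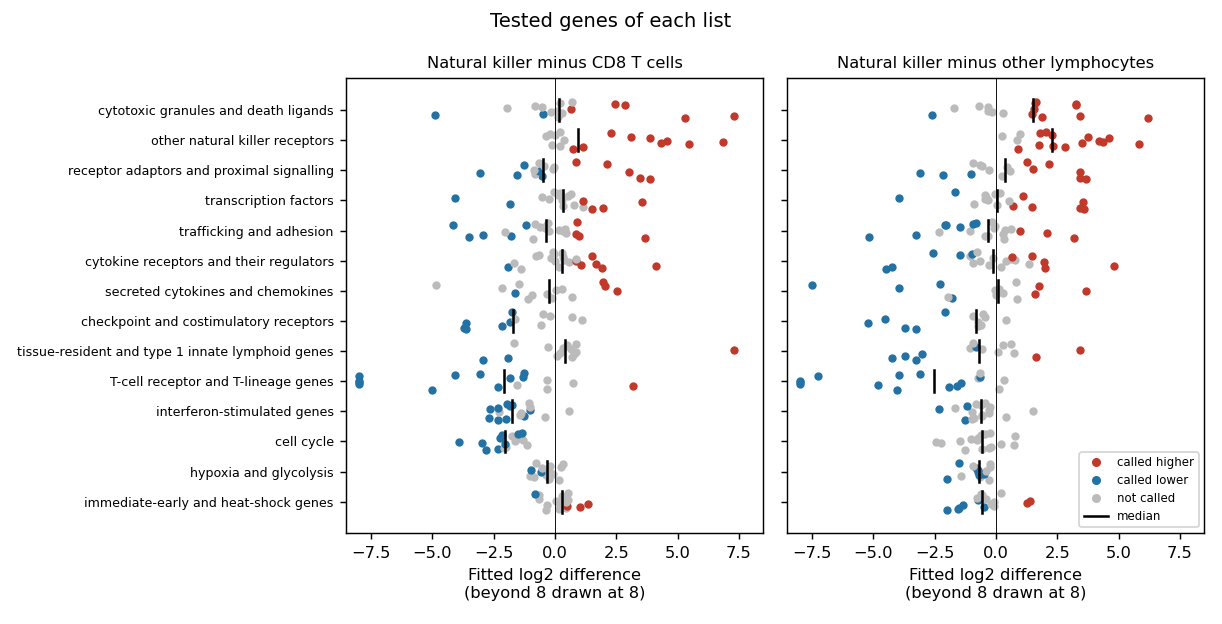
Fitted log2 differences of the tested genes of 14 lists (horizontal axis, values beyond 8 drawn at 8; 1 dot per gene, vertical bars for medians), against CD8 T cells (left) and other lymphocytes (right). Receptor genes lie mostly to the right of 0, with medians of 0.94 and 2.30, and checkpoint genes to the left, with medians of -1.69 and -0.83; genes with no UMI in natural killer cells are drawn at fitted values that depend on the prior count.

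The naming rule took the 10 highest and 10 lowest called genes against CD8 T cells and 5 and 5 against other lymphocytes, and several lie outside the lists. Spry2, an inhibitor of receptor tyrosine kinase signalling, had 485, 602 and 659 CPM in natural killer cells, 15.1, 25.5 and 35.6 CPM in CD8 T cells and 24.4, 20.5 and 9.74 CPM in other lymphocytes (4.47 ± 0.26, adjusted p = 2.74e-10 and 4.95 ± 0.25, adjusted p = 3.66e-11). Its libraries were far apart from both other classes. Car2, a carbonic anhydrase gene, had 400, 366 and 498 CPM against 20.4, 23.6 and 15.2 CPM in other lymphocytes (4.28 ± 0.28, adjusted p = 1.14e-09) and also exceeded CD8 T cells (2.47 ± 0.24, adjusted p = 5.22e-07). Maff, a small MAF transcription factor gene (3.46 ± 0.36, adjusted p = 1.24e-06), and Pecam1, the CD31 adhesion gene (3.23 ± 0.43, adjusted p = 3.07e-05), were the other genes higher than in CD8 T cells.

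The genes named as lowest all had 0 UMIs in natural killer cells, so each gives only a bound. Beside Cd6, Cd5 and Themis, Adam19 was at least 9.06-fold, Actn2 at least 7.56-fold and Nrn1 at least 7.38-fold lower than in CD8 T cells. Ube2l6, an interferon-inducible conjugating enzyme gene, was at least 5.40-fold lower, and Ass1, an arginine synthesis gene, at least 3.30-fold, with Izumo1r and Trp53i13 at least 3.06-fold and 2.70-fold. Against other lymphocytes the bounds were 31.3-fold for Actn2, 17.3-fold for Cd163l1, a scavenger receptor gene of gamma-delta T cells, 15.8-fold for the kinase gene Blk, 12.7-fold for Ass1 and 10.5-fold for Cd6. Nrn1 was uneven in CD8 T cells, at 8.60, 100 and 27.2 CPM.

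To compare shares of cells, 1100 UMIs were drawn at random from each barcode and shallower ones were left out, which kept 173 natural killer cells (34, 108 and 31), 823 CD8 T cells and 1404 other lymphocytes. Gzma had a UMI in 44.7% ± 3.61 of natural killer cells (SD, n = 3 libraries; 41.2, 44.4 and 48.4%), and in 53.0% ± 5.81 before thinning. The share was 2.94% ± 0.332 in CD8 T cells and 0.244% ± 0.248 in neutrophils, which should lack the gene, at median depths of 889 to 1115.5 UMIs before thinning. Thinning kept 427 of 1330, 604 of 1814 and 896 of 1718 neutrophils in replicates 1, 2 and 3, so neutrophil shares describe the deeper barcodes only. Tyrobp was the most widely detected adaptor, in 82.4, 86.1 and 100% of natural killer cells, beside 10.9% ± 3.17 of CD8 T cells and 98.4% ± 0.712 of neutrophils.

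Xcl1 was detected in 76.5, 65.7 and 61.3% of natural killer cells, Klrd1 in 67.6, 62.0 and 67.7% and Il2rb in 50, 38.0 and 41.9%, whereas each was found in 0.529%, 0.557% and 0.148% of neutrophils on average. Eomes was found in 27 of 173 natural killer cells, Cxcr6 in 10, Itga1 in 6 and Prf1 in 1, and at this depth a cell without a UMI may still express the gene.

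**Figure D5:**
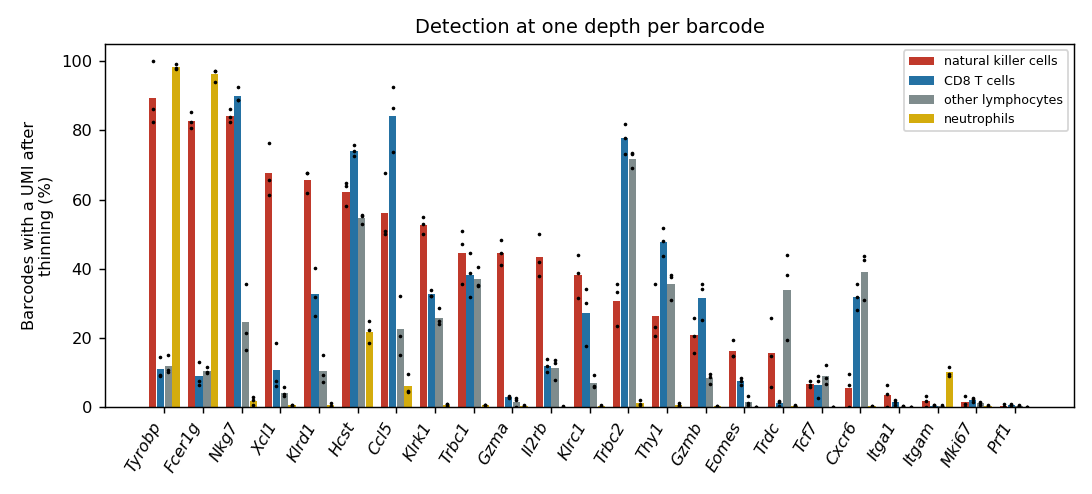
Share of barcodes with a UMI (vertical axis, %) after thinning each barcode to 1100 UMIs, for selected genes and 4 classes; bars are means over 3 libraries and dots the libraries. Tyrobp and Fcer1g are frequent in natural killer cells and neutrophils, Gzma and Xcl1 mainly in natural killer cells, at 44.7% and 67.8%.

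Because Itga1 was too rare, natural killer cells were divided by a Gzma UMI after thinning, a choice made after the data were seen. Cells with Gzma numbered 14, 48 and 15 and cells without it 20, 60 and 16. A missing UMI does not show a cell without granzyme A, and whether the groups differ in level or in kind was not tested. Of 244 genes tested 17 passed (6.97%), 14 higher (5.74%) and 3 lower (1.23%) in cells with Gzma. With so few UMIs only abundant genes could be tested.

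Ccl5 was concentrated in the cells with Gzma, at 13896, 12481 and 14424 CPM against 545, 1182 and 1023 CPM (log2 difference 3.79 ± 0.15, adjusted p = 1.54e-22), and it was called in each alternative run. Gzmb had 584, 606 and 1636 CPM against 136, 75.8 and 0 CPM (3.39 ± 0.41, adjusted p = 5.72e-08), and Ccl4, a chemokine gene, 779, 1970 and 1273 CPM against 682, 182 and 114 CPM (2.48 ± 0.39, adjusted p = 9.87e-06). Gzmb missed the threshold without replicate 1 (adjusted p = 0.112) and without replicate 3 (adjusted p = 0.0736), and Ccl4 without replicate 3 (adjusted p = 0.287). Ctla2a, a protease inhibitor gene, was higher by 1.46 ± 0.32 (adjusted p = 0.00222), Klrd1 by 0.83 ± 0.26 (adjusted p = 0.0406) and Actb, the beta-actin gene, by 0.97 ± 0.12 (adjusted p = 5.72e-08). The ribosomal protein genes Rpl31, Rpl9 and Rps19 were the 3 lower ones, with log2 differences of -0.52, -0.43 and -0.35.

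Xcl1 did not follow Gzma, at 2792, 1648 and 2727 CPM with it and 2545, 2606 and 3182 CPM without it (-0.27 ± 0.15, adjusted p = 0.315). Of the 173 thinned cells 41 had both Gzma and Xcl1, 36 Gzma alone, 75 Xcl1 alone and 21 neither. For Gzma and Ccl5 these counts were 55, 22, 38 and 58, and for Gzma and Gzmb 27, 50, 5 and 91. Gzmb was thus found mostly in cells that also had Gzma, whereas Xcl1 was found in both groups of cells.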

How the data were processed

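Transcripts of single CD45-positive cells were counted in 3 libraries. The deposited matrices hold whole-number UMI counts per gene and barcode, not normalized, for 28692 genes; Cell Ranger, Seurat and the mm10 build are named per the submitters' processing notes, with versions not given in the sources used here, and the labels mention a 5′ platform as well as a 3′ protocol. Every barcode meeting the stated limits was used, and no doublet caller was run; barcodes with more than 1 lineage's genes were limited by the rule, and 1 alternative left out the top 5% by UMIs.

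UMIs were summed per library and class and tested with edgeR 4.0.16 (R 4.3.3) on TMM-scaled counts with its filter on low counts and the library as a block, because the classes of a library come from the same sample; adjusted p-values are from this test with Benjamini-Hochberg adjustment at 0.05. Standard errors were derived from the test statistic. On data simulated with 4-fold changes, a preset spread and no library effect, 72.8% of 191 changed genes were recovered against CD8 T cells. In that simulation 6 unchanged genes were called. Its spread differed from the fitted one, so the recovered share need not hold for the real comparison. The members and gene lists were chosen with earlier results of these data known. Named genes were the 10 highest and 10 lowest called against CD8 T cells and 5 and 5 against other lymphocytes, with a mean log2 CPM of at least 5 and 1 direction in 3 of 3 libraries, plus list members. The Itga1 split could not be fitted and was replaced by a Gzma split. Genes with 0 UMIs were set at 3 counts for the whole class, as a bound. DESeq2 1.42.0, other filters, scaling and gates, and leaving out each library were the alternatives. Intervals are 95% Clopper-Pearson, by scipy 1.17.1, and cover counting error only. Replicate numbers follow the order of deposition and only name the libraries. A few measured genes are not reported here.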

Additional observations from a re-analysis of the deposited data

How the results depend on the processing

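Against CD8 T cells the number of genes called was 451, and it was 276 when CD8 T cells were limited to those with Gzmb and no Gzmk (223 shared with the 451), 290 with at least 3 gate UMIs (271 shared) and 240 to 386 when 1 library was left out. Against other lymphocytes it was 525, and 311 to 471 when 1 library was left out. The lowest values, 240 and 311, came without replicate 2, which holds 128 of the 211 natural killer cells. Without the replicate block, which pairs the classes of a library, 402 and 515 genes were called (388 and 487 shared).

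For the Gzma split, 17 genes were called, and 3 with DESeq2, 68 before thinning, 9 with library totals, 8 with no filter on low counts, 11 without the replicate block and 2 to 11 without 1 library. Of its 8 called genes reported here, 1 was called in every alternative run, so this split rests on few molecules.

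Of the called genes reported, 61 of 102 against CD8 T cells and 77 of 110 against other lymphocytes were called in the same direction in every alternative run. Gzmb against CD8 T cells turned to -1.35 when those cells were chosen for Gzmb, and Trdc and Tcrg-C4 turned to -6.38 and -7.55 when barcodes with their UMIs were left out, both by construction. Spp1 against other lymphocytes was -2.27, and it turned to 0.62 without the top 5% of barcodes and ranged from -2.79 to 0.68 when 1 library was left out, the latter without replicate 2; the cause was not tested. With 36 to 128 natural killer cells per library, genes under about 3 UMIs gave bounds or counting intervals only.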
